A study of Mus musculus with 15 samples.

Results

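The genes described here are 42 lysosomal hydrolases, hydrolase activators, lysosomal membrane proteins and the transcription factors Tfeb and Tfe3, chosen by name from 20089 genes listed in an RNA-seq expression table of mouse bone marrow-derived macrophages (BMDMs). Cathepsins and subunits of the vacuolar proton pump were kept out of this set. The cells came from wild-type mice and all were cultured with M-CSF, the growth factor that drives marrow precursors into macrophages. The 15 samples formed 5 groups of 3, namely control cells with M-CSF alone, cells also given the osteoclast-forming cytokine RANKL for 4 h or for 72 h (3 days in the labels), and cells also given the bacterial endotoxin LPS for 4 h or for 72 h. The comparison was designed to separate osteoclast formation from inflammatory activation. The labels give no time for the control cells, so the stimulus and the time in culture cannot be told apart in comparisons with control. Comparisons of 72 h with 4 h likewise cannot tell the duration of a stimulus from the time in culture. The labels do not say whether the 3 samples of a group were separate animals or cultures, and p-values therefore measure only the spread between these samples.

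Lysosomes are acidic compartments in which soluble hydrolases break down glycans, lipids, proteins and nucleic acids, while membrane proteins protect the limiting membrane and carry the products out. Most soluble hydrolases reach the lysosome with a mannose phosphate tag. TFEB and TFE3 belong to the MiT family of transcription factors, which bind E-box sequences in the promoters of many lysosomal genes and are held in the cytoplasm when mTORC1 is active at the lysosomal surface. Macrophages depend on lysosomes to digest what they engulf, and osteoclasts direct lysosomal exocytosis onto bone.

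The promoter sequence that MiT factors bind was looked for around the start sites of the genes. The genes were not chosen by this sequence. It is known from promoters of many lysosomal genes, however, so its share in a lysosomal list is a description only. RefSeq promoter windows (GRCm38.p6, 250 bases before to 50 bases after each start site, 300 bases in all) were found for 37 of the 42 genes, and not for Aga, Asah1, Galns, Hgsnat and Npc1. The heptamer TCACGTG, on either strand, was in the windows of 11 of these 37 genes (29.7%), against 6.81% of 8973 genes that were tested for expression and 4.29% of 27025 genes with a window. The E-box core CACGTG, which the heptamer contains, was found in the same 11 of 37 genes (29.7%), against 11.5% of tested genes. The octamer TCACGTGA was found in 4 genes (10.8%, against 2.03%) and the full palindromic CLEAR element in Cln3 (2.7% of members, against 0.736%). Other lysosomal genes held these letters at like shares, the heptamer in 4 of 13 proton pump genes with a window (30.8%) and 2 of 9 cathepsins (22.2%), and the octamer in 3 (23.1%) and 2 (22.2%) of them. The genes with the heptamer were Arsa, Cln3, Gaa, Gla, Glb1, Lamp1, Lgmn, Mcoln1, Naglu, Sgsh and Sumf1. The members were chosen for lysosomal function, the windows of neighbouring genes can overlap, and a match is a description of letters, not evidence of binding.

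Of these stretches, 5 lie clear of annotated exons and are printed 5′ to 3′ on the strand of the gene, with the heptamer or octamer in capitals. They are Lamp1 (chr8:13159079-13159160, plus strand), Glb1 (chr9:114401009-114401055, plus), Gaa (chr11:119267802-119267848, plus), Lgmn (chr12:102439116-102439162, minus) and Sumf1 (chr6:108185584-108185615, minus), all on GRCm38.p6. Lamp1 holds 4 copies of the core within 62 bases of its start site, and the other printed genes hold 1 copy each. Cln3, Gla and Mcoln1, whose stretches overlap annotated exons and are not printed, hold 2 copies each. Whether the number of copies goes with expression was not tested.
Lamp1: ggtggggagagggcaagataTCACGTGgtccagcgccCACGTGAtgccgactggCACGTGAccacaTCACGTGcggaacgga
Glb1: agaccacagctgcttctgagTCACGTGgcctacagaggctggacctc
Gaa: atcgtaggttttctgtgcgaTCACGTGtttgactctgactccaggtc
Lgmn: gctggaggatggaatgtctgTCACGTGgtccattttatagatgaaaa
Sumf1: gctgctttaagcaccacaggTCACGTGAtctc
CACGTGA in these lines is TCACGTG read on the other strand.

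Expression was deposited as FPKM, fragments scaled to transcript length and to sequencing depth, a scale on which levels can be set between genes. Fragment numbers could be recovered from these values, and the listed genes held 18306184 to 20330207 fragments per sample. The 42 members took 2.89% to 4.54% of the fragments of a sample, and the lowest count of any member in any sample was 76, for Tfeb in LPS-treated cells. All 42 members passed the filter of a mean of at least 0.1 FPKM. Macrophage identity was checked on Csf1r, the M-CSF receptor, at 198 ± 16.3 FPKM in control (SD, n = 3), and on Adgre1 at 247 ± 66.3 FPKM. The summed level of 10 stromal marker genes was 142 to 313 FPKM in control, 393 to 1841 in RANKL 72 h and 83.2 to 465 in LPS 72 h, and 8 neutrophil marker genes summed to 4759 to 14197 FPKM in control, 999 to 4150 in RANKL 72 h and 119 to 1115 in LPS 72 h. Against control, 7 of the 10 stromal genes were called higher in RANKL 72 h and 1 in LPS 72 h, and 5 and 8 of the 8 neutrophil genes were called lower. Over all tested genes, 16.6% and 13.0% were called higher in these groups, and 7.54% and 14.4% lower. No gene of either list was at 0 in a whole group, and the part of these cells in the members' values was not tested. LPS 72 h replicate 3 stood apart, with the highest stromal and neutrophil sums of its group and an LPS response sum (10 genes) of 2074 FPKM against 4536 and 4296. In bulk RNA, fewer cells of a type and less RNA per cell cannot be told apart.

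In control cells the levels spanned a wide range. Psap, which encodes the precursor of the saposins that present sphingolipids to hydrolases, was highest at 6753 ± 59.6 FPKM (SD, n = 3), followed by the asparaginyl protease Lgmn (1633 ± 196), the macrophage glycoprotein Cd68 (1385 ± 73), progranulin Grn (1321 ± 137) and Lamp1 (1087 ± 26.9). Lgmn, Cd68 and Grn overlapped in their 3 values each, while Psap and Lamp1 stood apart from their neighbours in this order. The lowest levels were those of Sgsh (9.22 ± 3.55 FPKM), Arsa (10.6 ± 0.482), Tfeb (10.7 ± 1.13), Ctns (11.1 ± 1.79) and Ids (11.3 ± 1.61), whose values overlapped. Summed over the 42 genes, the level was 15419 to 16459 FPKM in control, 16638 to 17105 in RANKL 4 h, 10688 to 12124 in RANKL 72 h, 11321 to 11819 in LPS 4 h and 14090 to 15454 in LPS 72 h. The sums of RANKL 72 h and LPS 4 h lay below every control sum, also without Psap (7063 to 7287 and 6606 to 7072, against 8733 to 9681 in control).

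**Figure D1:**
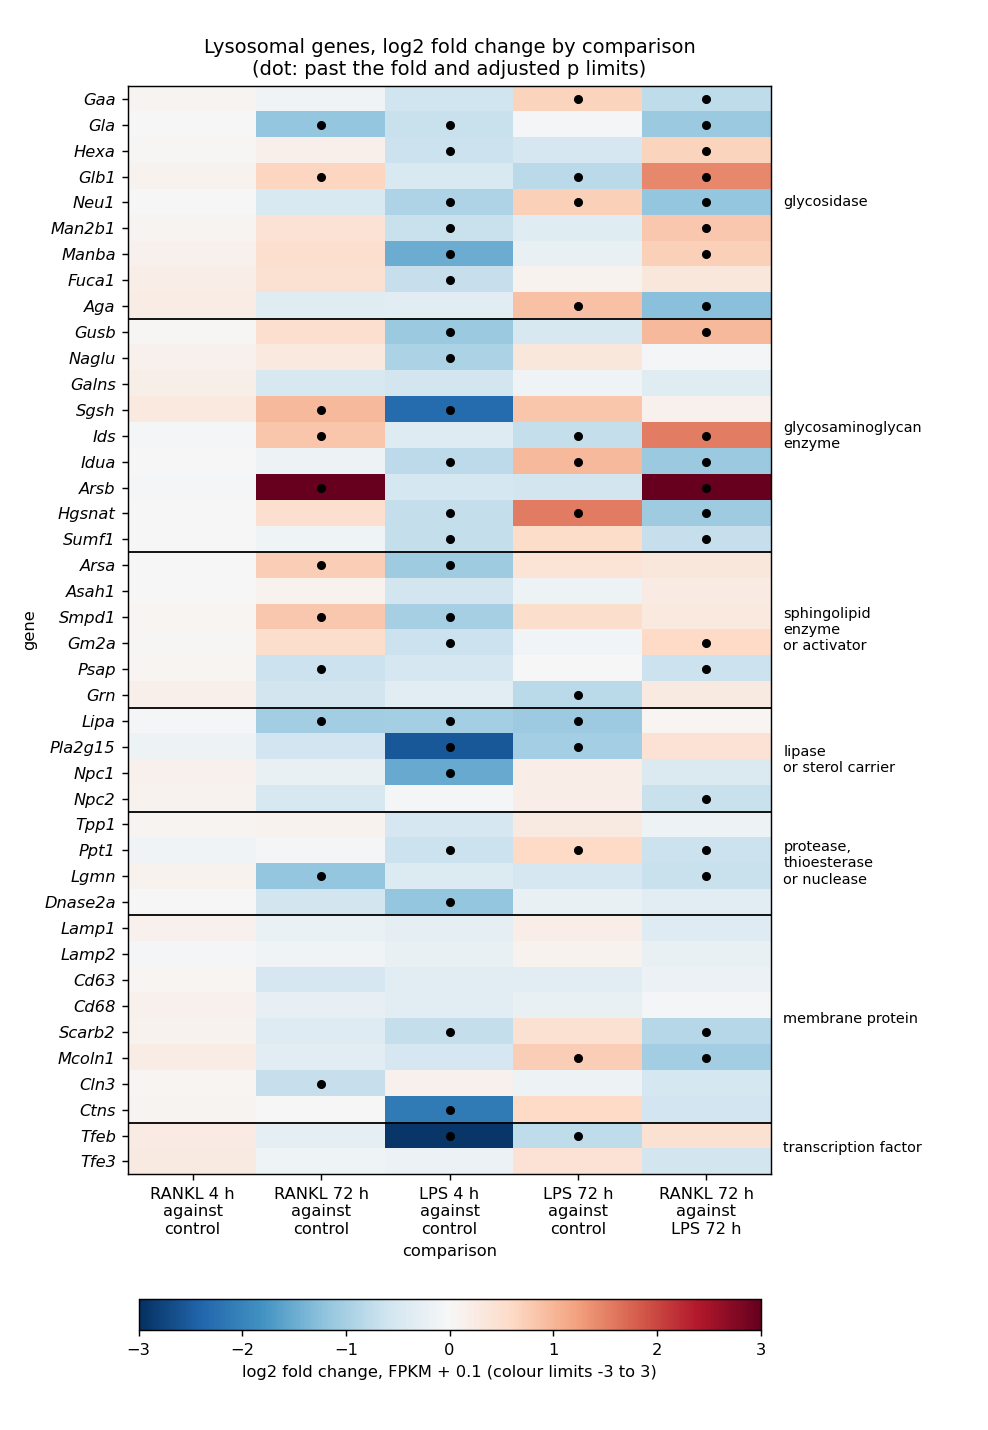
Log2 fold change (colour, on log2(FPKM + 0.1), limits -3 to 3) of 42 lysosomal genes (rows, grouped by role) in 5 comparisons (columns). Dots mark genes past a fold change of 1.5 or 0.66 with an adjusted p under 0.05; none lie in the RANKL 4 h column, 23 lie in the LPS 4 h column, all lower, and Arsb (3.22 and 3.77) exceeds the colour limit.

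The response to RANKL at 4 h was small in these genes. None of the 42 passed the test (fold change above 1.5 or below 0.66 and adjusted p under 0.05, limma with Benjamini-Hochberg adjustment over all tested genes), where 14 of 11743 tested genes did (0.119%, of which 0.111% higher and 0.00852% lower), and none passed at an unadjusted p under 0.05 with the same folds or with limma voom on the recovered fragments. Their log2 fold changes lay between -0.15 and 0.30, with a median of 0.07 against 0.00 for all tested genes. Tfe3 had 44.5, 49.0 and 45.6 FPKM in RANKL 4 h against 36.7, 38.4 and 41.2 in control. All 3 values were above control, yet its log2 fold change of 0.26 (SE 0.09) did not pass (adjusted p = 0.667, limma). Tfeb had 14.4, 12.1 and 11.99 FPKM against 9.72, 10.5 and 11.9, also without overlap (log2 fold change 0.26, adjusted p = 1.0, limma).

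After 72 h of RANKL, the sulfatases Arsb, Ids, Sgsh and Arsa rose, as did Smpd1 and Glb1, while Gla, Lgmn, Lipa, Cln3 and Psap fell. Of the 42 genes, 6 were called higher (14.3%, against 16.6% of all tested genes) and 5 lower (11.9%, against 7.54%), with a median log2 fold change of -0.13 against 0.16 for all tested genes. The share called higher was near that background. The 9 glycosaminoglycan genes, which include Sumf1, the activator of sulfatases, gave 3 of these rises and no called fall, with a median of 0.50. Galns, another sulfatase among these genes, went the other way without being called. It had 33.0, 30.8 and 29.2 FPKM, below every control value (45.3, 41.3 and 42.8). The summed level of the 9 genes was 584 ± 84.6 FPKM against 376 ± 45.6 in control (SD, n = 3). Of the difference of 208 FPKM between these sums, 112 came from Arsb alone and 70.5 from Gusb, which was not called. All 8 membrane proteins had log2 fold changes below that of the median gene, and of these 1 was called, Cln3.

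Arsb showed the largest change of the set. It encodes arylsulfatase B, which removes sulfate from dermatan and chondroitin sulfate, and lies on chromosome 13 from 93771630 to 93943016 (GRCm38, GENCODE M21, plus strand). Its levels were 127, 61.9 and 184 FPKM in RANKL 72 h against 11.4, 10.6 and 14.5 in control, 9.77, 11.965 and 13.9 in RANKL 4 h, 8.02, 8.21 and 8.72 in LPS 4 h, and 7.77, 7.34 and 9.75 in LPS 72 h. Each RANKL 72 h sample was above all 12 others. The log2 fold change against control was 3.22 (SE 0.29), a 9.32-fold rise (adjusted p = 6.68e-06, limma). The 10 osteoclast markers, of which 9 were called higher, summed to 3168, 1721 and 5474 FPKM in the same 3 samples, against 155 to 280 in control. The stromal sum was 1841, 824 and 393 FPKM in those samples. The part of osteoclasts or of stromal cells in the result was not tested. Arsb shares 32.3% of its exon bases with Gm26527, a long non-coding RNA on the opposite strand, and reads of the pair cannot be told apart where strand is not stated.

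Other rises were smaller. Ids, the iduronate sulfatase of dermatan and heparan sulfate (chromosome X, 70343069 to 70365084, minus strand), had 18.8, 20.3 and 20.7 FPKM in RANKL 72 h against 10.7, 13.1 and 10.01 in control. The groups did not overlap, and the log2 fold change was 0.83 (SE 0.18, adjusted p = 0.00389, limma). Sgsh, which removes sulfate from the amino sugar of heparan sulfate, had 24.3, 12.5 and 16.4 FPKM against 5.24, 10.3 and 12.1, where the lowest RANKL value lay just above the highest control value (log2 fold change 0.97, SE 0.34, adjusted p = 0.0445). Smpd1, the acid sphingomyelinase, had 26.1, 20.8 and 35.5 FPKM against 15.7, 15.3 and 14.5 (log2 fold change 0.82, SE 0.16, adjusted p = 0.00223). The remaining called rises were Arsa, the sulfatide sulfatase (log2 fold change 0.74, adjusted p = 0.00159), and Glb1, the acid β-galactosidase whose activity marks senescent cells (0.63, adjusted p = 0.0298), both from the same limma fit. Arsa shares 18.8% of its exon bases with an antisense gene and Sgsh 21.6% with Card14 on the opposite strand.

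Among the falls, Gla, the α-galactosidase that clears globotriaosylceramide, had 50.5, 43.6 and 41.3 FPKM in RANKL 72 h against 122, 95.8 and 88.5 in control. Its level was 2.25-fold lower (log2 fold change -1.17, SE 0.21, adjusted p = 0.00126, limma). Lgmn had 850.1, 784 and 578 FPKM against 1675, 1804 and 1419, with no overlap and a 2.23-fold lower level (log2 fold change -1.16, SE 0.17, adjusted p = 0.000255). Lipa, the acid lipase that frees cholesterol and fatty acids from engulfed lipoproteins, had 278, 327 and 261 FPKM against 437, 666 and 702 (log2 fold change -1.04, SE 0.29, adjusted p = 0.0172). Cln3, a membrane protein mutated in Batten disease, had 20.8, 17.96 and 15.6 FPKM against 29.7, 26.2 and 31.8 (log2 fold change -0.69, SE 0.14, adjusted p = 0.00233). Cln3 shares 7.6% of its exon bases with Apobr on the opposite strand, which had 24.4 to 61.5 FPKM over the samples. Psap had 4414, 4996 and 3625 FPKM against 6797, 6777 and 6685 (log2 fold change -0.65, SE 0.20, adjusted p = 0.0244). In all 5 genes every RANKL 72 h value lay below every control value.

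The split between rises and falls rested on the scaling. After subtraction of the median gene in each library, 3 members were called higher and 12 lower, against 9.94% and 12.2% of tested genes. Glb1 (log2 fold change 0.41, adjusted p = 0.151, limma), Sgsh (0.75, 0.0767) and Arsa (0.52, under the fold limit) were then not called. With FPKM rescaled to equal sums 7 were higher (against 21.4%) and 3 lower (against 6.22%), and Psap (-0.53) and Cln3 (-0.57) were under the fold limit. Without RANKL 72 h replicate 3, 6 of the 11 calls were left, 4 higher (against 1762 of 11743 tested genes) and 2 lower (against 649, or 5.53%), and Glb1 (log2 fold change 0.50, adjusted p = 0.117), Psap (-0.52, 0.094), Lipa (-0.97, 0.0556), Sgsh (0.99, 0.0855) and Cln3 (-0.59, 0.0128, under the fold limit) were not called. Other single libraries also ended calls. The values were 0.50 to 0.66 for Glb1 (without control replicate 1 or 3 or RANKL 72 h replicate 1), -0.66 to -0.64 for Psap (without any control replicate), -0.95 and -0.91 for Lipa (without control replicate 2 or 3) and 0.61 to 1.09 for Sgsh (without control replicate 1 or 2, RANKL 4 h replicate 2, RANKL 72 h replicate 1, any LPS 4 h replicate or LPS 72 h replicate 2). Psap and Sgsh also lost their calls with no filter on low values (adjusted p = 0.156 and 0.0612, limma) and with only the groups compared in the fit (0.0565 and 0.08), and Sgsh without the trend (0.0548).

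Against RANKL 4 h, 4 of the 42 genes were called higher at 72 h (9.52%, against 16.4% of tested genes) and 7 lower (16.7%, against 6.83%). Control samples entered that contrast only through the estimate of spread. The rises were Arsb (log2 fold change 3.26), Ids (0.88), Arsa (0.76) and Smpd1 (0.75), and the falls were Lgmn (-1.27), Gla (-1.18), Lipa (-0.99), Cln3 (-0.76), Grn (-0.70), Psap (-0.70) and Galns (-0.64). Centred on the median gene, 2 were higher (against 9.72% of tested genes) and 17 lower (against 11.5%), and with equal sums 6 were higher (against 21.1%) and 3 lower (against 5.38%).

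**Figure D2:**
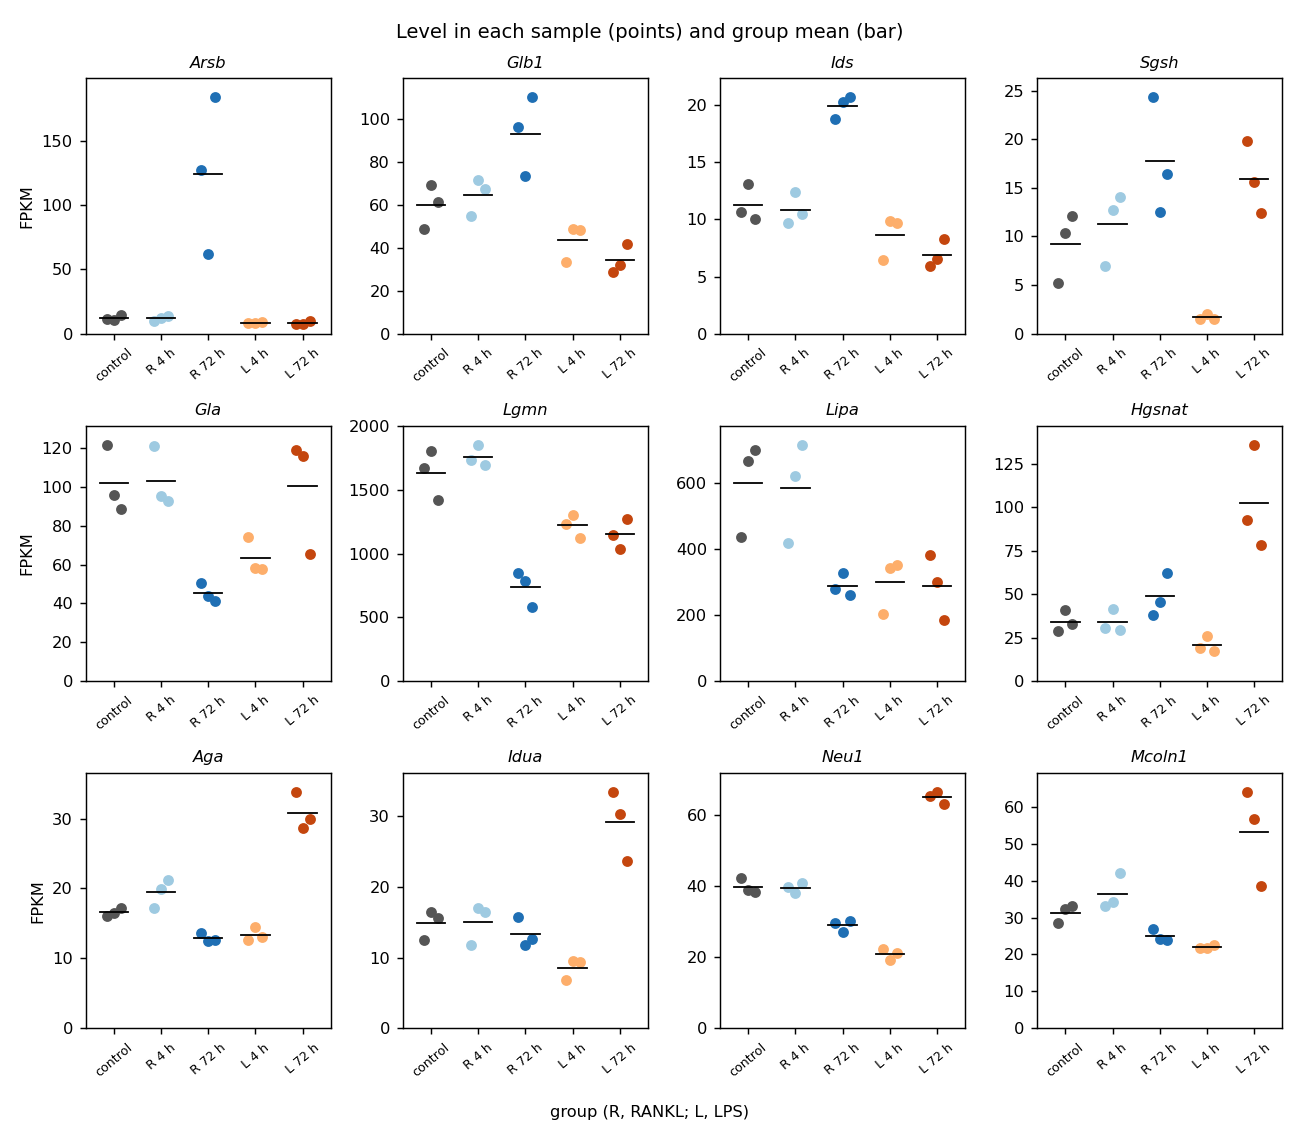
FPKM (vertical axes, linear from 0) of 12 lysosomal genes in each of 15 samples (points, 3 per group) with the group mean (bar). Arsb is above 60 FPKM only in RANKL 72 h, Glb1 and Ids are highest in RANKL 72 h and lowest in LPS 72 h, and Hgsnat, Aga, Idua, Neu1 and Mcoln1 are highest in LPS 72 h.

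After 4 h of LPS many of these genes were lower, as were many others. Of the 42, 23 were called lower (54.8%, against 39.7% of all tested genes) and none higher (against 8.43%), where 48.1% of tested genes were called in either direction. The log2 fold change was negative in 41 members, and in 9238 of 11743 tested genes. In 39 members all 3 LPS values lay below all 3 control values, a count that was not made over all genes. The median log2 fold change was -0.65 for the members and -0.52 for all tested genes, and 27 of 42 members lay below the median gene. After subtraction of the median gene in each library, 6 members were called lower (14.3%, against 13.0% of tested genes) and 1 higher (against 15.9%), and 24 rather than 41 members lay below 0. Lamp1, Cd68, Tfe3 and Psap were among the 17 that turned from below to above 0, and none of them was called on either scale. The 6 were Tfeb, Pla2g15, Sgsh, Ctns, Npc1 and Manba, and the 1 was Cln3, at 34.8, 33.1 and 28.3 FPKM in LPS 4 h against 29.7, 26.2 and 31.8 in control, which overlapped on the deposited scale (log2 fold change 0.13, SE 0.14).

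Tfeb fell furthest. The gene lies on chromosome 17 from 47737030 to 47792419 (GRCm38, plus strand), and its levels were 1.69, 1.06 and 1.31 FPKM in LPS 4 h against 9.72, 10.5 and 11.9 in control. This was a 7.55-fold lower level (log2 fold change -2.92, SE 0.17, adjusted p = 1.996e-08, limma), or -2.39 relative to the median gene. Its relative Tfe3 had 33.5, 33.9 and 35.9 FPKM against 36.7, 38.4 and 41.2 and did not pass (log2 fold change -0.17, 95% confidence interval -0.37 to 0.03, adjusted p = 0.124). Mitf and Tfec, the other MiT factors, were called higher at 4 h of LPS, with log2 fold changes of 0.97 (SE 0.18, adjusted p = 0.000418) and 1.28 (SE 0.23, adjusted p = 0.000393). The 4 related factors thus had Tfeb called lower, Tfe3 not called and Mitf and Tfec called higher.

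Pla2g15, the lysosomal phospholipase that degrades phospholipids taken up by macrophages, had 12.8, 14.6 and 12.3 FPKM in LPS 4 h against 69.6, 90.6 and 73.2 in control, a 5.81-fold lower level (log2 fold change -2.54, SE 0.15, adjusted p = 2.60e-08, limma). Sgsh had 1.48, 2.05 and 1.53 FPKM against 5.24, 10.3 and 12.1 and was 4.98-fold lower (log2 fold change -2.32, SE 0.34, adjusted p = 6.60e-05). Ctns, the cystine exporter of the lysosomal membrane, had 2.16, 2.69 and 2.50 FPKM against 9.48, 10.8 and 13.0, or 4.37-fold lower (log2 fold change -2.13, SE 0.22, adjusted p = 3.53e-06). None of these 3 genes overlapped between the groups. Npc1, which exports cholesterol from the lysosome, and the β-mannosidase Manba followed with log2 fold changes of -1.52 (adjusted p = 0.000114) and -1.48 (adjusted p = 5.41e-05).

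The falls after 4 h of LPS are given by role, against the 39.7% of all tested genes that were called lower. The count was 6 of 9 glycosidases, 6 of 9 glycosaminoglycan enzymes, 3 of 6 sphingolipid genes, 3 of 4 lipases and sterol carriers, 2 of 4 genes for a protease, thioesterase or nuclease, 2 of 8 membrane proteins and 1 of 2 transcription factors. The summed level of the glycosaminoglycan enzymes was 202 ± 30.1 FPKM against 376 ± 45.6 in control (SD, n = 3), and that of the 8 membrane proteins 2572 ± 25.1 against 3196 ± 150 FPKM. Among the membrane proteins, only Ctns and Scarb2, a receptor that carries an enzyme to the lysosome, were called. The difference between the roles was not tested. Without 1 library, 20 to 25 members were called lower. Single libraries ended the calls of Gla (-0.54, adjusted p = 0.0583, without control replicate 1), Hexa (-0.56, without LPS 4 h replicate 1), Man2b1 (-0.60, without control replicate 3), Ppt1 (-0.57 and -0.56, without control replicate 2 or LPS 4 h replicate 1), Gm2a (-0.53 and -0.54, without control replicate 1 or LPS 4 h replicate 3) and Hgsnat (-0.66 to -0.59, without control replicate 2 or LPS 4 h replicate 1 or 3).

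**Figure D3:**
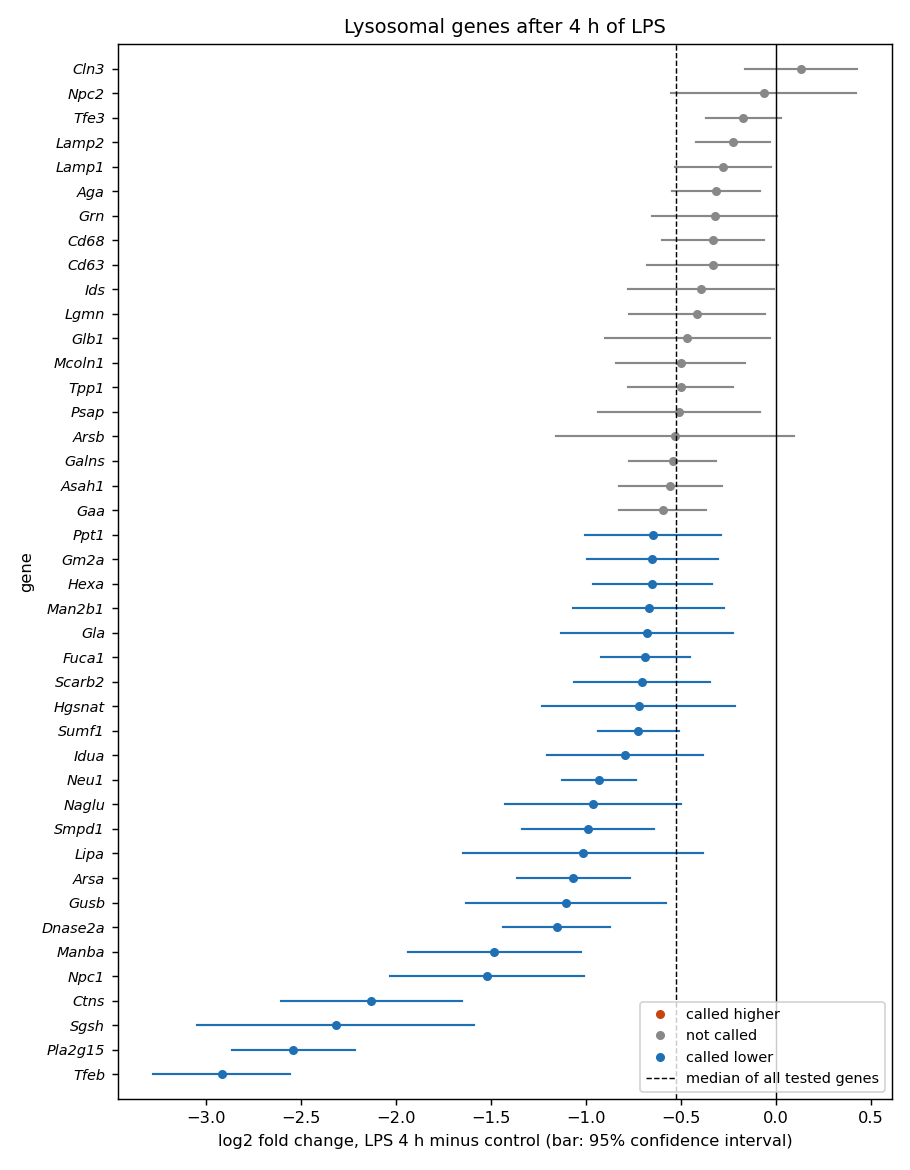
Log2 fold change of LPS 4 h against control (points) with 95% confidence intervals (bars) for 42 lysosomal genes ordered by size, with blue for genes called lower and grey for genes not called. The dashed line is the median of all tested genes (-0.52); Tfeb, Pla2g15, Sgsh and Ctns lie between -2.92 and -2.13, clear of it.

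At 72 h of LPS the set had divided. Of the 42 genes, 7 were called higher than control (16.7%, against 13.0% of tested genes) and 6 lower (14.3%, against 14.4%), with a median log2 fold change of 0.05 against 0.08. Both shares were near the background. Hgsnat, a membrane enzyme that acetylates heparan sulfate so that it can be degraded further (chromosome 8, 25944453 to 25976753, minus strand), rose furthest. It had 92.4, 136 and 78.4 FPKM against 28.9, 40.7 and 32.8 in control, a 2.94-fold rise (log2 fold change 1.56, SE 0.24, adjusted p = 0.000265, limma).

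The next rises were in enzymes that act on glycosaminoglycans and glycoproteins and in a channel. Idua, the iduronidase, had 33.4, 30.3 and 23.7 FPKM in LPS 72 h against 12.5, 16.5 and 15.6 in control (log2 fold change 0.96, SE 0.19, adjusted p = 0.00175, limma). Aga, which splits the sugar from asparagine, had 33.8, 28.7 and 30.0 FPKM against 16.0, 16.5 and 17.3 (0.89, SE 0.11, adjusted p = 5.71e-05). Mcoln1, the lysosomal calcium channel, had 64.0, 56.7 and 38.5 FPKM against 28.5, 32.4 and 33.0 (0.73, SE 0.16, adjusted p = 0.00309). In these genes no LPS value overlapped with control. Neu1 (0.70), Gaa (0.66) and Ppt1 (0.59) completed the called rises. Ppt1 shares 3.5% of its exon bases with Cap1 on the opposite strand, which had 197 to 358 FPKM over the samples. Without the library that stood apart, LPS 72 h replicate 3, Ppt1 had a log2 fold change of 0.38 and was not called, while without LPS 72 h replicate 1 Mcoln1 had 0.58. Ppt1 was also not called without control replicate 1 (0.50, adjusted p = 0.0596) or with only the groups compared in the fit (adjusted p = 0.0666, limma).

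Falls at 72 h of LPS included lipid enzymes and Tfeb. Lipa had 382, 299.8 and 184 FPKM against 437, 666 and 702 in control (log2 fold change -1.09, SE 0.29, adjusted p = 0.0112, limma). Pla2g15 had 35.5, 35.2 and 44.1 FPKM against 69.6, 90.6 and 73.2 (-1.02, SE 0.15, adjusted p = 0.000209). Grn had 641, 741 and 900.3 FPKM against 1346, 1444 and 1173 (-0.80, SE 0.15, adjusted p = 0.0013). All 3 genes lay below control in every sample. Tfeb had 7.42, 5.51 and 6.06 FPKM, below control but above the values at 4 h (log2 fold change against control -0.76, SE 0.17, adjusted p = 0.00363). Glb1 (-0.81) and Ids (-0.71) were the other falls, and Ids was at -0.59 and not called without control replicate 2.

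In the count of calls at 72 h of LPS, LPS 72 h replicate 3 mattered most. Without it 21 members were called, 12 higher (against 2119 of 11743 tested genes) and 9 lower (against 1840, or 15.7%), and calls over all genes also rose, from 3212 to 3959. The additional calls were in Hexa, Gusb, Man2b1, Naglu, Scarb2, Sgsh, Smpd1, Ctns and Sumf1, and the call of Ppt1 was lost. This replicate had macrophage markers (7 genes) summing to 16209 FPKM, against 4942 and 6717 in the other 2 samples of its group, and the part of its different makeup in the members' values was not tested.

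Of the 23 genes called lower than control at 4 h of LPS, 19 were called higher at 72 h than at 4 h. The 23 were picked by low values in the same 4 h samples, which favours a rise in this count. Against control at 72 h, 4 of the 23 were called higher, 3 lower and 16 were not called. Neither count was made for all tested genes called lower at 4 h. Over the whole set, 24 of 42 genes were called higher at 72 h than at 4 h of LPS (57.1%, against 44.2% of tested genes) and none lower (against 13.9%; 58.1% of tested genes in either direction), with a median log2 difference of 0.70 against 0.52 for all tested genes. Both the members and all genes were thus mostly higher at the later time. Centred on the median gene, 15 were higher (against 18.8% of tested genes) and 7 lower (against 27.5%). The largest differences were those of Sgsh (3.16, SE 0.34), Ctns (2.72, SE 0.22), Hgsnat (2.28, SE 0.24) and Tfeb (2.16, SE 0.17). Sgsh moved from 1.48, 2.05 and 1.53 FPKM at 4 h to 19.8, 15.6 and 12.4 at 72 h, and Ctns from 2.16, 2.69 and 2.50 to 22.9, 18.7 and 10.7. Neu1, Idua, Ppt1 and Hgsnat were called lower than control at 4 h and higher at 72 h, whereas Tfeb, Pla2g15 and Lipa were called lower at both times.

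RANKL and LPS at 72 h were then set directly against each other, with the control samples entering only the estimate of spread. Of the 42 genes, 8 were called higher in RANKL 72 h (19.0%, against 23.3% of tested genes) and 13 lower (31.0%, against 12.8%; 36.1% of tested genes in either direction), with a median log2 difference of -0.19 against 0.11 for all tested genes. Centred on the median gene, 5 were higher (against 19.0% of tested genes) and 16 lower (against 17.4%). With equal sums, 8 were higher (against 3020 of 11743 tested genes) and 9 lower (against 1225). Psap (-0.55), Ppt1 (-0.57), Lgmn (-0.57) and Npc2 (-0.59) were then under the fold limit. Arsb differed most, at 13.6-fold (log2 difference 3.77, SE 0.29, adjusted p = 7.12e-07, limma), with the values given above. Ids had 18.8, 20.3 and 20.7 FPKM in RANKL 72 h against 5.89, 6.51 and 8.24 in LPS 72 h, a 2.89-fold higher level (log2 difference 1.53, SE 0.18, adjusted p = 1.47e-05).

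Glb1, on chromosome 9 from 114401076 to 114474898 (plus strand), had 96.1, 73.3 and 110.0 FPKM in RANKL 72 h against 28.9, 31.9 and 41.8 in LPS 72 h, with control values of 48.9, 69.0 and 61.5 between them. The level was 2.71-fold higher in RANKL 72 h (log2 difference 1.44, SE 0.20, adjusted p = 7.28e-05, limma). Against control, Glb1 and Ids were the 2 members that RANKL raised and LPS lowered at 72 h by the test, and no member showed the opposite. The rise of Glb1 in RANKL 72 h was not called after centring on the median gene (log2 fold change 0.41, adjusted p = 0.151, limma). Glb1 shares 5.5% of its exon bases with Tmppe on the same strand. Gusb, the β-glucuronidase of glycosaminoglycan breakdown, had 233, 241 and 259 FPKM against 101, 109.8 and 170.0 (log2 difference 0.98, SE 0.25, adjusted p = 0.00507), although it was not called against control in either group at 72 h. Man2b1 (0.81), Manba (0.71), Hexa (0.66) and Gm2a (0.59) were also higher. They encode further enzymes of glycan breakdown and the activator of ganglioside hydrolysis.

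Lower in RANKL 72 h than in LPS 72 h were the 7 members that had risen under LPS and were not called under RANKL, namely Aga, Neu1, Idua, Hgsnat, Mcoln1, Gaa and Ppt1. Aga had 13.6, 12.5 and 12.6 FPKM in RANKL 72 h against 33.8, 28.7 and 30.0 in LPS 72 h (log2 difference -1.25, SE 0.11, adjusted p = 1.31e-06, limma). Neu1, the sialidase, had 29.6, 27.0 and 30.3 FPKM against 65.6, 66.6 and 63.3 (-1.17, SE 0.09, adjusted p = 7.25e-07). Idua had 15.7, 11.7 and 12.7 FPKM against 33.4, 30.3 and 23.7 (-1.11, SE 0.19, adjusted p = 0.000374). These 3 genes differed 2.16-fold to 2.37-fold with no overlap. Gla had 50.5, 43.6 and 41.3 FPKM against 119, 116 and 65.6 (-1.11, SE 0.21, adjusted p = 0.000807), and the lowest LPS value was that of replicate 3. Scarb2, Sumf1, Npc2, Lgmn and Psap were the remaining called members, with log2 differences of -0.85 to -0.63. Within the glycosaminoglycan enzymes, Arsb, Ids and Gusb were higher in RANKL 72 h and Hgsnat, Idua and Sumf1 lower.

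With only these 2 groups in the fit, Psap was not called (adjusted p = 0.188, limma), and calls over all genes fell from 4245 to 3761. Several of the smaller differences between RANKL and LPS at 72 h rested on 1 library. Without LPS 72 h replicate 1, Hexa (0.55), Psap (-0.53), Gm2a (0.55) and Npc2 (-0.61) were not called, and without LPS 72 h replicate 2 neither were Manba (0.65), Gm2a (0.49) and Npc2 (-0.64). Without LPS 72 h replicate 3, Ppt1 (-0.44) and Lgmn (-0.58) were not called, nor were Psap (-0.51) and Lgmn (-0.49) without RANKL 72 h replicate 3, Gm2a (0.54) and Npc2 (-0.66) without RANKL 72 h replicate 1, and Npc2 (-0.66) without RANKL 72 h replicate 2.

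**Figure D4:**
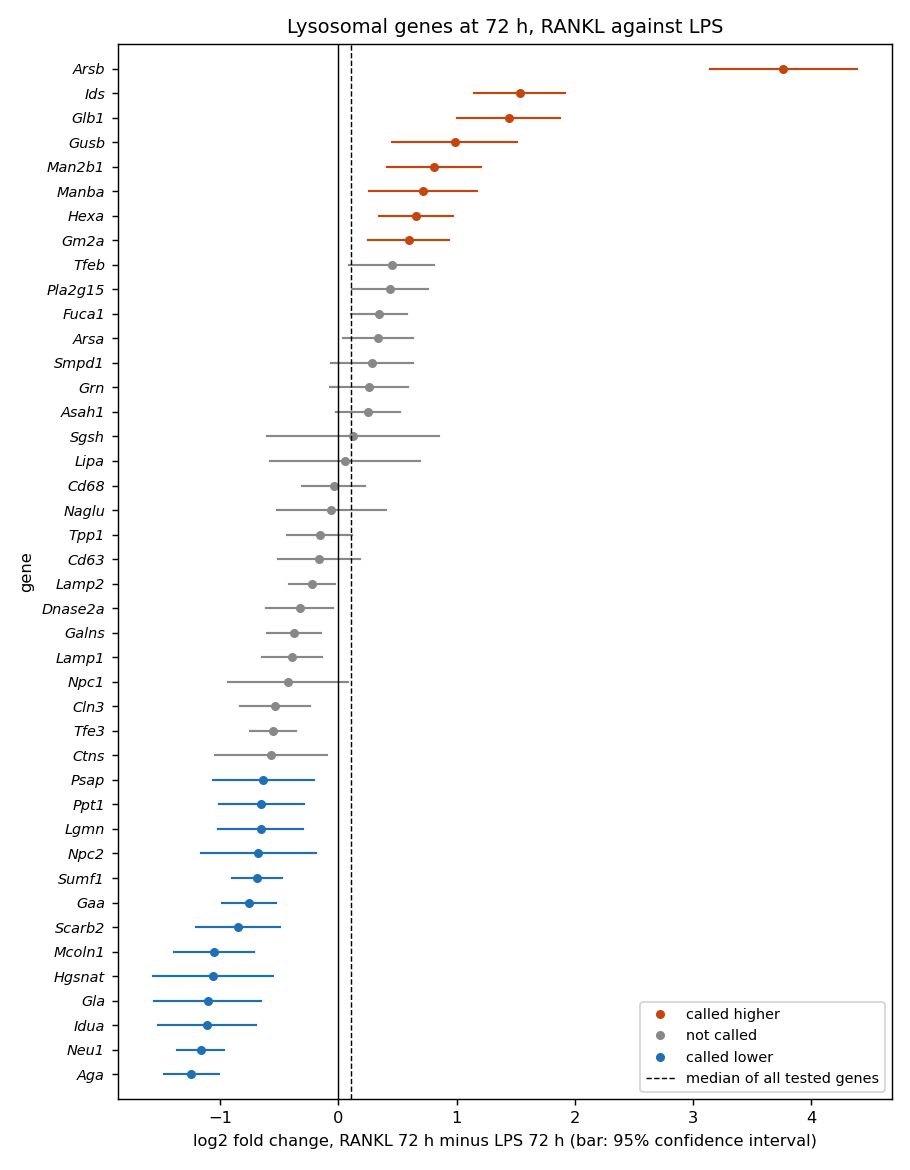
Log2 difference of RANKL 72 h minus LPS 72 h (points) with 95% confidence intervals (bars) for 42 lysosomal genes ordered by size, with orange for genes called higher, blue for genes called lower and grey for genes not called. The dashed line is the median of all tested genes (0.11); Arsb lies at 3.77, apart from Ids (1.53) and Glb1 (1.44), and Aga is lowest at -1.25.

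Several proteins that define the lysosomal membrane did not pass the test. In all, 9 members were not called in any of the 4 comparisons with control, a count that was not made over all tested genes. They were Lamp1, Lamp2, Cd63, Cd68, Galns, Asah1, Tpp1, Tfe3 and Npc2. This list depends on the processing, since Cd63 (log2 fold change -0.73) and Galns (-0.70) were called lower in RANKL 72 h after centring on the median gene, as were Npc2 in RANKL 72 h (-0.68, without control replicate 3) and Asah1 in LPS 4 h (-0.61, without control replicate 3 or LPS 4 h replicate 2). Lamp1, the main glycoprotein lining the lysosomal membrane, had 1081, 1116 and 1064 FPKM in control, 1144, 1219 and 1178 in RANKL 4 h, 970.3, 1019.7 and 876 in RANKL 72 h, 852, 933 and 907 in LPS 4 h, and 1188, 1261 and 1301 in LPS 72 h. Lamp2, needed for fusion of autophagosomes with lysosomes, had 117, 109 and 116 FPKM in control, 114, 111 and 109 in RANKL 4 h, 111, 103 and 103 in RANKL 72 h, 95.7, 96.3 and 101 in LPS 4 h, and 115, 119 and 137 in LPS 72 h. Both were lowest in LPS 4 h and highest in LPS 72 h, with the 3 values of LPS 4 h below those of LPS 72 h.

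The tetraspanin Cd63 had 586, 455 and 435 FPKM in control, 606, 447 and 495 in RANKL 4 h, 363, 322 and 342 in RANKL 72 h, 469, 343 and 363 in LPS 4 h, and 358, 371 and 424 in LPS 72 h. Cd68 had 1433, 1421 and 1301 FPKM in control, 1415, 1534 and 1566 in RANKL 4 h, 1087, 1161 and 1241 in RANKL 72 h, 1094, 1109 and 1099 in LPS 4 h, and 1145, 1159 and 1282 in LPS 72 h. Both genes were below control at 72 h of either stimulus in every sample, by less than the fold limit. Tfe3 had 35.0, 38.1 and 33.4 FPKM in RANKL 72 h and 55.6, 50.1 and 50.8 in LPS 72 h, and Tfeb 8.79, 8.93 and 8.16 FPKM in RANKL 72 h. Mcoln1 had 33.1, 34.2 and 41.9 FPKM in RANKL 4 h, 26.9, 24.3 and 23.9 in RANKL 72 h, and 21.8, 21.8 and 22.7 in LPS 4 h.

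**Figure D5:**
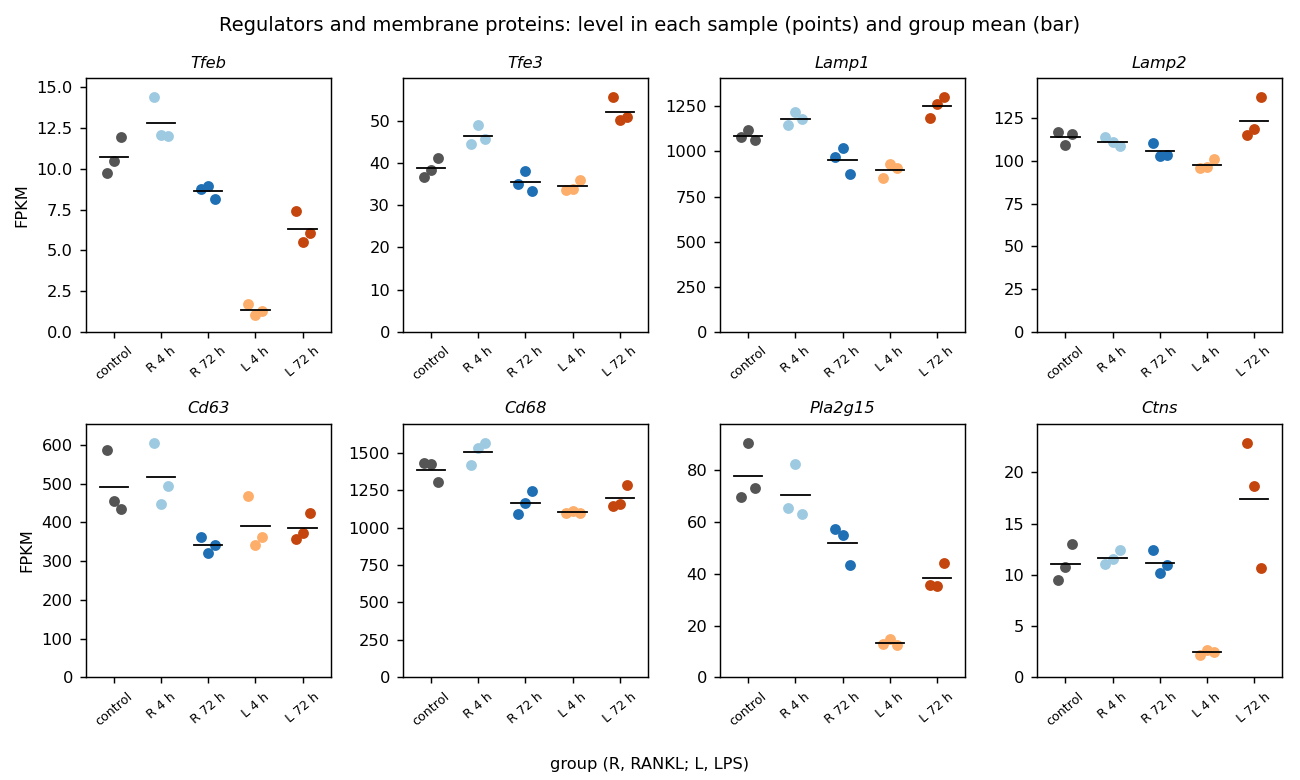
FPKM (vertical axes, linear from 0) of the transcription factors Tfeb and Tfe3, the membrane proteins Lamp1, Lamp2, Cd63, Cd68 and Ctns, and the phospholipase Pla2g15 in each of 15 samples (points) with the group mean (bar). Tfeb, Pla2g15 and Ctns drop in LPS 4 h to means of 1.35, 13.2 and 2.45 FPKM, while Lamp1 and Lamp2 stay within 852 to 1301 and 95.7 to 137 FPKM.

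Other lysosomal genes outside the set, 43 of them tested, were counted in the same fit. In RANKL 72 h, 3 were called higher (6.98%, against 16.6% of tested genes) and 2 lower (4.65%, against 7.54%), with a median log2 fold change of -0.12. The rises were in Igf2r (1.39), a receptor for the mannose phosphate tag, Gnptab (1.15), which makes that tag, and Naaa (0.79), and Lamtor4 (-0.67) was among the falls. In LPS 4 h, 2 were higher (4.65%, against 8.43%) and 21 lower (48.8%, against the 39.7% of all tested genes given above), with a median of -0.66. The deepest falls were in Rragd (-2.34), Flcn (-2.29) and Fnip2 (-2.21), which act with mTORC1 on the lysosomal surface and control where TFEB resides, and the rises were those of Tfec and Mitf. In LPS 72 h, 6 were higher (14.0%, against 13.0%), led by Rragd (1.10), Tmem106b (1.04) and Flcn (0.87), and 2 lower (4.65%, against 14.4%), among them Mitf (-1.10).

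Cathepsins and proton pump subunits, the neighbouring groups of lysosomal genes, gave other counts. Over all tested genes, 16.6% were called higher and 7.54% lower in RANKL 72 h. These shares were 8.43% and 39.7% in LPS 4 h, and 13.0% and 14.4% in LPS 72 h. Of 12 cathepsins, 2 were called higher and 4 lower in RANKL 72 h (median log2 fold change -0.33), 1 and 1 in LPS 4 h (median -0.37), and 2 and 1 in LPS 72 h (median 0.22). Of 18 pump genes tested, none were called higher and 1 lower in RANKL 72 h (median 0.14), none and 5 in LPS 4 h (median -0.45), and none and 3 in LPS 72 h (median -0.07). Differences between these groups and the 42 members were not tested.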

How the data were processed

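The 15 BMDM samples were grouped by their labels. The authors deposited FPKM, made with StringTie and Ballgown according to their methods, and the submitters' processing notes name GRCm38.p4 (mm10). The aligner is not given in the sources used here, nor is whether counting used strand. FPKM scales fragments to transcript length and library size, so a change in a few abundant genes moves all others. The last listed gene is incomplete and genes after Tti2 were not analysed here. Some results for single genes are not reported here.

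For 14485 genes, 100% of values were within 0.01 of whole fragments. A pseudocount of 0.1 was added to FPKM before taking log2, and 1 limma model (version 3.58.1 in R 4.3.3, with a mean-variance trend in eBayes) held all 5 groups and the 11743 genes whose mean reached 0.1 FPKM. On this scale the fold change of low genes is understated. Calls required an adjusted p (Benjamini-Hochberg) under 0.05 together with a fold over 1.5 or under 0.66. The authors' methods use unadjusted p and edgeR, and unadjusted p was an alternative here. Exact permutation tests of 3 against 3 cannot go below p = 0.1 and were not used.

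Values in every sample are given for 7 regulators and membrane proteins (Tfeb, Tfe3, Lamp1, Lamp2, Cd63, Cd68 and Mcoln1), for the 4 largest called rises and falls of each contrast with control and of RANKL 72 h against LPS 72 h, and for members called in opposite directions. Psap, Cln3 in LPS 4 h and Ppt1 were also shown in full after their values were seen. Members, lists and tests were chosen with earlier results of these data known.

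Samples of 1 number deviated together between control and RANKL 4 h (correlation over 9486 genes 0.842, 0.707 and 0.743) and LPS 4 h (0.624, 0.616 and 0.44). Between control and RANKL 72 h the correlations were weaker (0.318, 0.136 and 0.184), and not every sample matched its own number best. Samples of LPS 72 h and control did not deviate together (-0.03, 0.184 and 0.072), and they share only a number in the labels. Replicates of a group differed by 6.88 to 46.3 times sampling noise, so none was a repeat deposit. Fragment counts are not independent molecules, and their counting error is a lower limit. Alternatives were pseudocounts of 1 and 0.01, no filter, a mean of at least 1 FPKM, centring on the median gene, equal sums, a replicate block, no trend, fits of 2 groups, unadjusted p, limma voom on the recovered fragments and leaving out each library. The fit and the fragment recovery were tested on simulated data. Positions are from GENCODE M21 (GRCm38) and promoter windows from RefSeq (GRCm38.p6). Python 3.11.15, numpy 2.4.6, pandas 2.3.3, scipy 1.17.1 and matplotlib 3.10.9 were used.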

Additional observations from a re-analysis of the deposited data

Results flagged for a closer look

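The level under LPS differed between 4 h and 72 h, by the direct contrast of the 2 times, in 24 of the 42 genes (57.1%). This was close to the 58.1% of all tested genes in either direction, so the count is not a result about these genes. Of these, 4 moved below control at the first time and above it at the second, a count that was not made over all tested genes. Hgsnat differed by 2.28 on the log2 scale (18.9, 26.1 and 17.4 FPKM at 4 h, 92.4, 136 and 78.4 at 72 h), Idua by 1.76 (6.82, 9.46 and 9.39, then 33.4, 30.3 and 23.7), Neu1 by 1.63 (22.5, 19.3 and 21.2, then 65.6, 66.6 and 63.3) and Ppt1 by 1.24 (30.9, 40.1 and 34.7, then 68.1, 74.7 and 111). All 4 had 72 h values above the 4 h values in 3 of 3 samples. The level under RANKL differed between 4 h and 72 h in 11 of the 42 genes (26.2%), near the 23.3% of tested genes. Groups of 3 were not tested for outlying samples.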

How the results depend on the processing

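With samples centred on their median gene, 7 members were called in LPS 4 h against control (main 23; over all genes 3400 against 5650) and 19 in RANKL 72 h against RANKL 4 h (main 11). Without 1 library, counts of called members ran from 6 to 13 in RANKL 72 h against control (6 without RANKL 72 h replicate 3), 20 to 25 in LPS 4 h, 12 to 21 in LPS 72 h (21 without LPS 72 h replicate 3), 17 to 21 in RANKL 72 h against LPS 72 h, 8 to 13 in RANKL 72 h against RANKL 4 h and 23 to 24 in LPS 72 h against LPS 4 h. RANKL 4 h gave 0 members in each setting. The causes were not tested. The fit with the replicate block gave the same counts of members in all 7 contrasts, for example 11 in RANKL 72 h and 23 in LPS 4 h. Over all genes, the 14 calls of RANKL 4 h became 24 with the block, 3 without the trend, 0 with 2 groups in the fit 301 with unadjusted p and 1 to 17 without 1 library (1 without RANKL 4 h replicate 2). Of 5460 single member values (5 contrasts, 26 alternatives), 90 lost and 47 gained a call and 5323 kept their side of the limits. The sign changed in 98, none of them a called value. Members had at least 76 fragments in every sample, and the effect of depth was not tested.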
